A study of Penicillium oxalicum with 6 samples.

Results

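A set of 101 genes of the filamentous fungus Penicillium oxalicum was described whose transcript levels averaged 4 to 8 times higher after deletion of the gene POX09752. The set was chosen by measured values: of 9834 gene IDs, it holds those numbered POX00001 to POX09342 whose deletion libraries averaged 20 FPKM or more, whose control libraries averaged 1 FPKM or more, and whose ratio of these means was at least 4 and under 8. FPKM is the number of sequenced fragments per unit of gene length and of library size, so that levels can be compared between genes. Libraries came from 2 strains, with 3 libraries each: MuPOX09752, the mutant that lacks the transcription factor gene POX09752, and Ku70, the mutant used as its control. Both were labelled as mycelium cultured for 24 h in liquid medium with 2% Avicel, a microcrystalline cellulose. The settings listed for all 6 libraries were 6 days on plates, then 1 g of hyphae in 100 mL of medium at 28 °C and 180 rpm. The growth text speaks only of the Ku70 mutant, and the labels do not state whether MuPOX09752 also carries the Ku70 change, how many transformants were used, or whether the libraries of a strain came from separate cultures.

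Penicillium oxalicum lives on plant debris and secretes cellulases and hemicellulases, which cut the cellulose and xylan of plant cell walls into sugars that the hyphae take up. In filamentous fungi, the genes for such enzymes are controlled by transcription factors, some of which activate and others of which repress, and the loss of a regulator can also change transcripts of many genes outside its own targets. Ku70 takes part in the repair of DNA breaks by end joining, and mutants of fungi that lack it are common hosts for gene replacement. The stated question was the role of POX09752 in the transcription of genes for cellulases and xylanases. The tables used here give the members as ID numbers only, so they are described by level, response, spread, length and place in the ID order, and no function is given to any of them.

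The libraries held 13099454 to 14115694 expected counts each. POX09752 itself had 0 counts in each of the 3 deletion libraries and 1375 to 1663 counts in the control libraries, so no library went against its label. Deletion replicate 3 stood apart from the other deletion libraries. Across genes, its levels on the log2(FPKM + 1) scale correlated with Pearson's r of 0.974 and 0.979 to those of deletion replicates 1 and 2, against 0.991 between those replicates and 0.994 to 0.995 between control libraries. The main summaries of level, ratio and spread are therefore given with and without deletion replicate 3. In whole mycelium, a higher level per cell and a larger share of cells that express a gene cannot be told apart.

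Most members lay above the median tested gene in the deletion strain and below it in the control. Their mean levels ran from 20.3 to 9311 FPKM in the deletion strain, with a median of 86.8 FPKM, and from 3.35 to 1553 FPKM in the control, with a median of 15.6 FPKM. Over all 8807 tested genes the medians were 29.5 FPKM for the deletion strain and 28.1 FPKM for the control. Thus 6 of the 101 members lay below the median tested gene in the deletion strain, and 65 lay below it in the control. The rule largely sets these counts, as it asks for at least 20 FPKM in the deletion strain and a ratio of 4 to 8. Of the 5439 tested genes with a deletion mean of at least 20 FPKM, 1035 lay below the median in the deletion strain and 1250 in the control. High levels were reached by a minority: 8 members had a deletion mean of at least 1000 FPKM, 12 lay between 300 and 1000 FPKM, 26 between 100 and 300 FPKM, 25 between 50 and 100 FPKM and 30 between 20 and 50 FPKM. The ratio of means was between 4 and 5 for 33 members, between 5 and 6 for 29, between 6 and 7 for 23 and between 7 and 8 for 16.

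**Figure D1:**
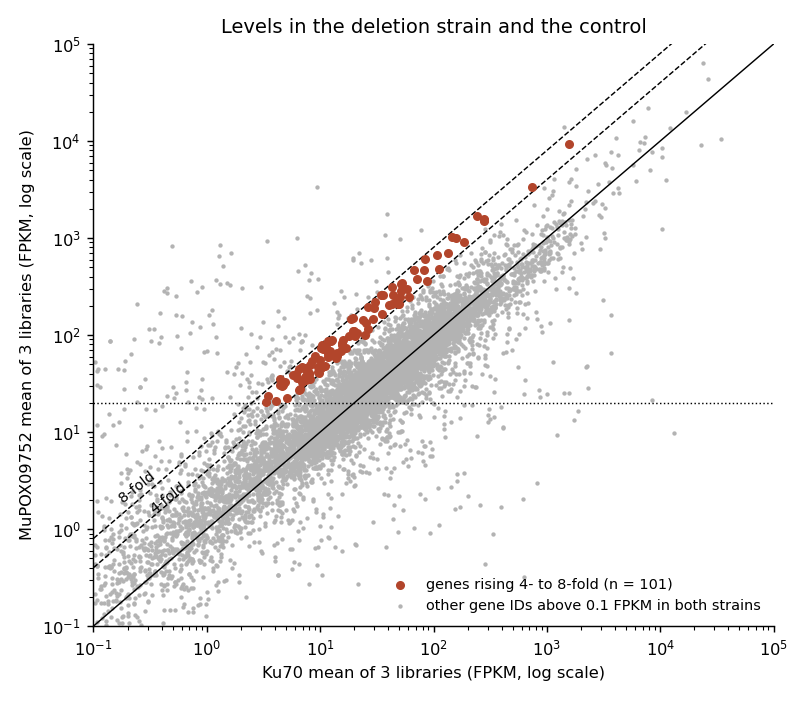
Mean level of each gene ID in the deletion strain (vertical axis) against the control (horizontal axis), both in FPKM on log scales and each over 3 libraries. Filled circles are the 101 members, which lie between the dashed lines for 4-fold and 8-fold and above the dotted line at 20 FPKM, and range from 20.3 to 9311 FPKM in the deletion strain, while small points are other gene IDs and the solid line marks equal levels.

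As the rule used these values, the following counts describe the choice and are no evidence about the members. All 101 members passed the expression filter of the test, which the rule itself implies, and 100 were called higher (edgeR quasi-likelihood test over all genes, Benjamini-Hochberg adjusted p under 0.05), where 29.8% of the 8807 tested genes were called higher and 60.1% were called in either direction. All 3 deletion libraries lay above all 3 control libraries for 100 members, as they did for 35.5% of the tested genes. POX05696 was the exception in both counts. The median log2 fold change of the members was 2.43, against 0.01 for all tested genes, and 2.36 without deletion replicate 3. In 51 members each of the 9 ratios of a deletion library to a control library was at least 4, and in 29 of these all 9 ratios were also under 8. In 2 members some ratio was under 2.

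Together the members took 3.87%, 3.91% and 3.48% of all counts in deletion replicates 1, 2 and 3, and 0.697%, 0.659% and 0.661% in the control libraries. This amounts to 3.75 ± 0.24% in the deletion strain and 0.672 ± 0.021% in the control (SD, n = 3 each). A few genes carried much of it. POX02231 alone took 22.9%, 22.6% and 18.4% of the members' counts in deletion replicates 1, 2 and 3, and the 8 members above 1000 FPKM took 54.5%, 56.2% and 47.8%. Of the members' summed FPKM in the deletion strain, which does not weight genes by length, POX02231 held 26.7% and the 8 genes 60.3%.

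POX02231 was the most abundant member in each of the 6 libraries. It had 10271, 10224 and 7437 FPKM in deletion replicates 1, 2 and 3, and 1644, 1546 and 1468 FPKM in the control libraries. Its mean of 9311 ± 1622 FPKM (SD, n = 3) was the 13th highest of all gene IDs in the deletion strain, and its mean of 1553 ± 88.2 FPKM (SD, n = 3) the 83rd highest in the control. POX02853 followed, with 3828, 3987 and 2331 FPKM in the deletion libraries and 806, 698 and 732 FPKM in the control libraries. Both genes were lowest in deletion replicate 3 among the deletion libraries, yet even there stood well above every control library.

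POX02811 had 1665, 2008 and 1409.8 FPKM in the deletion libraries and 246, 243 and 234 FPKM in the control libraries, the largest ratio of means after POX02405 among the 8 most abundant members, at 7.03. POX07870 had 1701, 1988 and 1049 FPKM in the deletion libraries, again with replicate 3 lowest, and 309, 277 and 244 FPKM in the control libraries. POX08486 showed the opposite order, with 1291, 1333 and 1993 FPKM in the deletion libraries and 270.4, 298 and 266 FPKM in the control libraries. Its effective length, as implied by count, FPKM and library total, is 218 bases, so its level rests on fewer counts than those of longer genes at a like FPKM. An effective length can be shorter than the gene, and all lengths given here are of this kind.

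POX01041 was the steadiest of all members across the deletion libraries, at 1476, 1526 and 1527 FPKM, and had 278, 284 and 273 FPKM in the control libraries. Its 9 library ratios lay between 5.202 and 5.596, and its log2 fold change was 2.41 ± 0.08 (SE). POX02405 had 1018, 959 and 1105 FPKM in the deletion libraries and 141, 148 and 149 FPKM in the control libraries. The 9 library ratios of POX02405 lay between 6.43 and 7.86. These 2 genes, and POX07688 with library ratios from 4.59 to 5.16, had a high level and a fairly even response. Other abundant members varied more in the same libraries.

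POX01764 was far less even. It had 329, 773 and 1924 FPKM in deletion replicates 1, 2 and 3, and 188, 135 and 147 FPKM in the control libraries. The groups did not overlap, but the lowest library ratio was 1.75 and the highest 14.2. Without deletion replicate 3 its ratio of means was 3.52 in place of 6.44, which is outside the rule. POX07688 had 915, 865 and 954 FPKM in the deletion libraries and 185, 188 and 185 FPKM in the control libraries, and POX02553 had 658, 506 and 926 FPKM in the deletion libraries and 128, 136 and 139 FPKM in the control libraries. The CVs (coefficient of variation, the SD as a percentage of the mean) of POX07688 were 4.91% in the deletion strain and 1.00% in the control, while the deletion libraries of POX02553 spread from 506 to 926 FPKM.

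**Figure D2:**
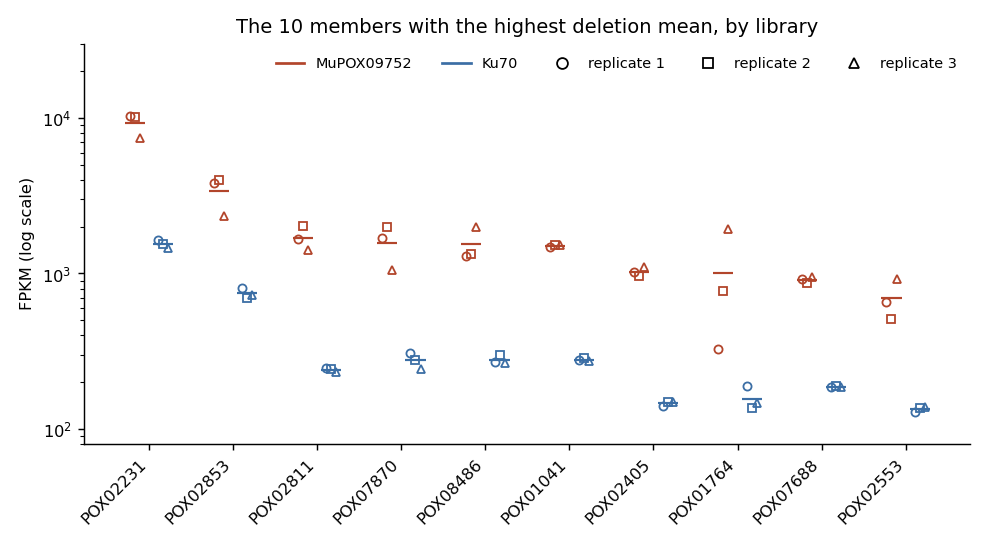
FPKM (vertical axis, log scale) of the 10 members with the highest deletion mean in each of the 6 libraries. For each gene the deletion strain is drawn left of the control, horizontal bars are means over 3 libraries and symbols mark replicates 1, 2 and 3. POX01041 lies within 1476 to 1527 FPKM in the deletion libraries, whereas POX01764 spreads from 329 to 1924 FPKM.

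The members with the largest ratios of means were low or moderate in the control. POX00769 had 34.7, 31.3 and 39.7 FPKM in the deletion libraries and 4.49, 4.91 and 3.92 FPKM in the control libraries, a ratio of 7.94. POX03296 had 114, 123 and 205 FPKM in the deletion libraries and 18.1, 19.0 and 19.5 FPKM in the control libraries, a ratio of 7.80. POX08646 had 143, 134 and 176 FPKM in the deletion libraries and 19.4, 19.6 and 19.7 FPKM in the control libraries, which were thus almost equal, and a ratio of 7.72. All 9 library ratios of POX08646 were between 6.80 and 9.08. Each of these 3 genes reached a ratio of 8 or more when a single library was left out, which was deletion replicate 2 or control replicate 2 for POX00769, deletion replicate 1 or 2 for POX03296 and deletion replicate 2 for POX08646.

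POX01918 had 89.3, 103 and 43.6 FPKM in the deletion libraries and 11.7, 9.99 and 9.67 FPKM in the control libraries. Its ratio was 7.52 with all libraries and 9.19 without deletion replicate 3. POX03626 had 302, 256 and 210 FPKM in the deletion libraries and 43.4, 28.7 and 30.6 FPKM in the control libraries, a ratio of 7.48 that was 8.15 without deletion replicate 3. POX03626 also left the rule when control replicate 1, its highest control library, was left out, whereas POX01918 left it only without deletion replicate 3 among the 6 libraries.

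At the lower limit, POX01702 had 137, 99.7 and 66.3 FPKM in the deletion libraries and 24.4, 26.6 and 24.3 FPKM in the control libraries, a ratio of 4.02. POX05915 had 262, 282 and 197 FPKM in the deletion libraries and 66.7, 57.1 and 59.5 FPKM in the control libraries, a ratio of 4.04. POX03248 had 363, 329 and 387 FPKM in the deletion libraries and 105, 69.3 and 86.2 FPKM in the control libraries. In POX03248 the deletion libraries varied less than the control libraries, with a CV of 8.17% in the deletion strain against 20.7% in the control. POX04532 had 21.0, 27.8 and 34.1 FPKM in the deletion libraries and 6.41, 6.16 and 7.39 FPKM in the control libraries. POX08703 had 21.2, 33.2 and 68.3 FPKM in the deletion libraries and 9.79, 10 and 9.38 FPKM in the control libraries, and its ratio of 4.21 was 2.80 without deletion replicate 3. Without that library the ratio was also under 4 for POX03248, at 3.98, and for POX04532, at 3.67. It was 4.71 for POX01702 and 4.455 for POX05915, but both genes left the rule when the ratio was taken from edgeR.

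The limits cut through a continuous range of values. Just outside 4-fold lay POX06604, with 92.2 ± 11.1 FPKM in the deletion strain, against 23.2 ± 1.70 FPKM in the control (SD, n = 3 each), a ratio of 3.97, and POX02977 at a ratio of 3.96. Just outside 8-fold were POX00041, with 22.6 ± 6.18 FPKM in the deletion strain, against 2.77 ± 0.48 FPKM in the control, and POX01842, with 20.1 ± 16.6 FPKM in the deletion strain, against 2.46 ± 0.43 FPKM in the control (SD, n = 3 each). Just inside the limit of 20 FPKM were POX05629 and POX07797, at 20.3 ± 6.89 and 21.1 ± 9.54 FPKM in the deletion strain. POX04050 and POX07583 fell short of it, at 19.5 ± 3.13 and 18.7 ± 4.94 FPKM. The limit of 1 FPKM in the control decided nothing, since the other limits already imply a control mean above 2.5 FPKM.

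With all libraries, members varied more between the deletion libraries than between the control libraries. Without deletion replicate 3 only 2 deletion libraries remain, too few for a like comparison with the 3 control libraries. The rule is not independent of this spread, since 1 high deletion library can lift a gene over the limits on level and ratio. The median CV of the members was 18.4% over the deletion libraries and 8.08% over the control libraries. Tested genes with a deletion mean of at least 20 FPKM, 5439 in number and members included, had median CVs of 9.54% in the deletion strain and 6.09% in the control. The median deletion mean of these genes was 55.3 FPKM, below the 86.8 FPKM of the members. Without deletion replicate 3 the medians over the 2 other deletion libraries were 6.92% for the members and 4.54% for the 5439 genes. The CV was larger in the deletion strain than in the control for 76 of the 101 members (75.2%) and for 70.0% of the 5439 genes. Without deletion replicate 3 it was larger for 47 members (46.5%) and 39.5% of the 5439 genes. A CV over 2 libraries tends to be lower than a CV over 3, so the values without replicate 3 cannot be set directly against the control. These medians are descriptions over genes that share libraries, and the difference was not tested. Among the deletion libraries, replicate 3 was the highest for 40 members (39.6%) and the lowest for 44 (43.6%), close to its shares of 41.0% and 40.3% over all tested genes.

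**Figure D3:**
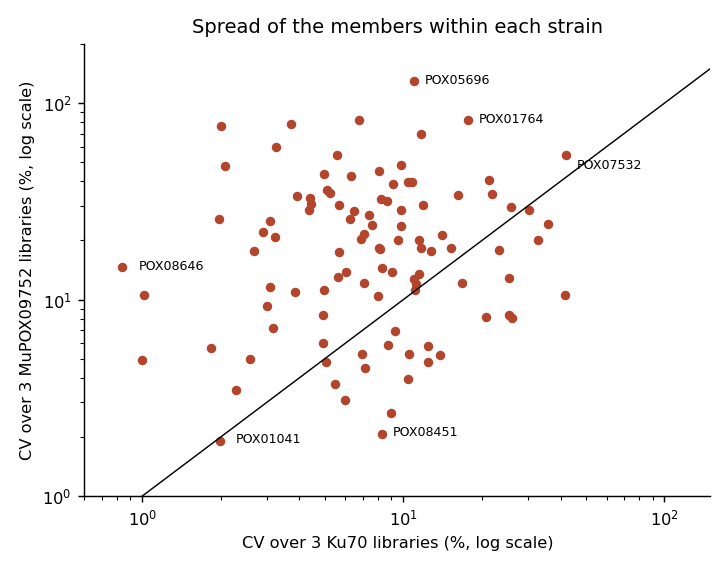
CV of each of the 101 members over the 3 deletion libraries (vertical axis) against its CV over the 3 control libraries (horizontal axis), in percent on log scales, with a line at equal values. Of the members, 76 lie above the line, among them POX08646, whose control CV is 0.84%, and POX05696, whose deletion CV is 129%, while POX08451 lies far below it.

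The 5 members with the largest spread were all highest in deletion replicate 3. POX05696 had 14.2, 9.69 and 117 FPKM in deletion replicates 1, 2 and 3, and 10.8, 8.75 and 9.25 FPKM in the control libraries. Deletion replicate 2 thus lay within the control range, and without replicate 3 the ratio of means was 1.25. POX05482 had 251, 240.1 and 910.0 FPKM in the deletion libraries and 71.7, 62.9 and 65.6 FPKM in the control libraries. POX04388 had 19.7, 30.2 and 85.7 FPKM in the deletion libraries and 6.80, 6.44 and 6.34 FPKM in the control libraries.

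POX06098 had 13.6, 12.96 and 44.8 FPKM in the deletion libraries and 3.40, 3.52 and 3.40 FPKM in the control libraries. In this gene, as in POX05482, deletion replicates 1 and 2 were close together and replicate 3 was more than 3 times their mean. POX01764, described above, completes the 5, and it differed from POX06098 in that replicate 2 was also more than 2 times replicate 1. Apart from POX05696, the deletion libraries of these genes remained above every control library. Without deletion replicate 3 the ratio of means was 3.68 for POX05482, 3.82 for POX04388 and 3.87 for POX06098. All 5 genes thus left the rule without that library.

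The steadiest members after POX01041 were POX08451, POX05484, POX08450 and POX00116. POX08451 had 112, 108 and 112 FPKM in the deletion libraries and 17.9, 19.2 and 21.1 FPKM in the control libraries, so that its deletion CV of 2.08% was below its control CV of 8.31%. POX05484 had 39.2, 39.1 and 41.0 FPKM in the deletion libraries and 7.76, 7.29 and 8.68 FPKM in the control libraries. POX08450 had 215, 228 and 219.8 FPKM in the deletion libraries and 49.0, 43.4 and 46.2 FPKM in the control libraries. POX00116 had 171, 159 and 166 FPKM in the deletion libraries and 34.1, 35.5 and 35.3 FPKM in the control libraries. In each of these genes the lowest deletion library was over 4 times the highest control library. Their lengths ran from 265 to 1968 bases, so both short and long genes were among them.

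Split by deletion replicate 3, with a limit of 1.5 times set after the values had been seen, the members fell into 3 groups. In 19 members replicate 3 was at least 1.5 times the mean of replicates 1 and 2, in 15 it was at most that mean divided by 1.5, and in 67 it lay in between. These shares were 18.8% and 14.9% for the high and the low group, against 5.31% and 4.17% of the 5439 genes of at least 20 FPKM. The high group had median levels of 33.7, 33.2 and 90.8 FPKM in deletion replicates 1, 2 and 3 and 9.59 FPKM in the control. The low group had medians of 137, 103 and 66.3 FPKM in the deletion libraries and 25.1 FPKM in the control. The median control CV was 6.27% in the high group and 9.12% in the low group, against 8.08% for all members.

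By the way these groups were formed, leaving out deletion replicate 3 must lower the ratio of means in the high group and raise it in the low group, and the values give only its size. The median ratio of the high group was 6.44 with all libraries and 3.94 without replicate 3, and that of the low group was 5.71 and 6.67. The 67 members in between had medians of 5.42 and 5.52. Of all 101 members, 12 had a ratio under 4 without replicate 3, 7 had a ratio of at least 8, and 4 had a deletion mean under 20 FPKM. Applying the rule without that library kept 81 of the 101 members and added 25 other genes. Among those pushed above 8 were POX08307, with 677, 859 and 291 FPKM in the deletion libraries and 83.7, 85.5 and 82.0 FPKM in the control libraries, and POX03347, with 238, 243 and 83.0 FPKM in the deletion libraries and 32.8, 29.1 and 27.1 FPKM in the control libraries. Both were named after their values had been seen.

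**Figure D4:**
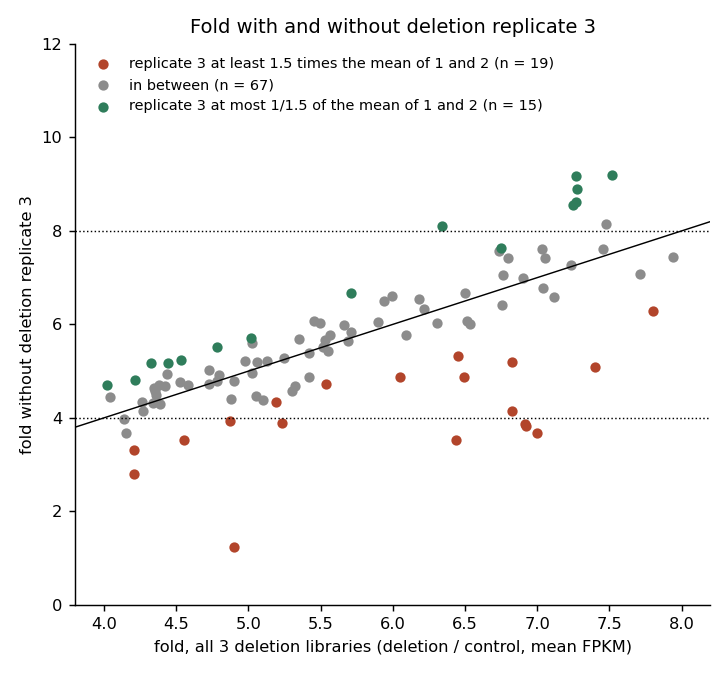
Ratio of mean FPKM, deletion over control, without deletion replicate 3 (vertical axis) against the ratio with all libraries (horizontal axis), with a solid line at equal values and dotted lines at 4 and 8. Colours mark the 19 members high in replicate 3, the 67 in between and the 15 low in it; 12 members drop below 4 and 7 reach 8 or more.

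Genes with larger ratios, and genes that fell by 4 to 8 times, were set beside the members. Of the IDs up to POX09342, 74 met the same limits on level with a ratio of at least 8 and no upper limit (median log2 fold change 3.77), and 85 had a deletion mean of at least 1 FPKM, a control mean of at least 20 FPKM and a level 4 to 8 times lower in the deletion strain. The median deletion CV was 18.4% for the members, 28.0% for the 74 genes and 15.98% for the 85 genes, and without deletion replicate 3 it was 6.92%, 12.2% and 7.16% in the same order. The median control CVs were 8.08%, 12.6% and 6.82% in the same order. Deletion replicate 3 was at least 1.5 times the mean of the other deletion libraries in 18.8% of the members, 31.1% of the 74 genes and 23.5% of the 85 genes. It was at most 1/1.5 of that mean in 14.9% of the members, 24.3% of the 74 genes and 4.71% of the 85 genes. The deletion mean had nearly the same median in the members and in the 74 genes, at 86.8 and 86.0 FPKM, whereas the control mean had a median of 15.6 FPKM in the members and 4.96 FPKM in the 74 genes. None of these differences between sets was tested, as all sets were cut from the same means.

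Some members carried consecutive ID numbers. There were 6 runs of consecutive IDs, which held 15 members, and the longest had 3 IDs. In all, 32 of the 101 members had another member within 5 IDs. Whether ID numbers follow the order of genes along the chromosomes is not known from the tables used here, and the strandedness of counting is not given, so reads of overlapping neighbours could not be told apart.

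The first run is POX01263 to POX01265. POX01263 had 51.3, 56.5 and 57.3 FPKM in the deletion libraries and 9.89, 9.06 and 10.8 FPKM in the control libraries. POX01264 had 46.2, 52.1 and 25.1 FPKM in the deletion libraries and 8.39, 11.9 and 8.23 FPKM in the control libraries. POX01265 had 52.3, 44.2 and 48.6 FPKM in the deletion libraries and 9.04, 14.4 and 10.1 FPKM in the control libraries. The next ID, POX01266, missed the rule with a ratio of 3.75, at 68.3 ± 3.23 FPKM in the deletion strain, against 18.2 ± 6.48 FPKM in the control (SD, n = 3 each). POX01264, POX01265 and POX01266 are short, at 262, 243 and 174 bases, and their means in the deletion strain lay between 41.15 and 68.3 FPKM, while POX01262 on the other side stood at 4.45 ± 2.58 FPKM in the deletion strain, against 1.62 ± 0.31 FPKM in the control (SD, n = 3 each).

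The second run, POX02577 and POX02578, also consists of short genes, of 281 and 165 bases. POX02577 had 41.0, 52.7 and 90.8 FPKM in the deletion libraries and 9.60, 8.47 and 8.96 FPKM in the control libraries. POX02578 had 50.7, 84.1 and 78.3 FPKM in the deletion libraries and 10.3, 10.4 and 10.9 FPKM in the control libraries. Both were lowest in deletion replicate 1, and their ratios of 6.83 and 6.76 were nearly the same. The IDs on each side were not higher in the deletion strain: POX02576 had 103 ± 4.64 FPKM there, against 109.6 ± 13.03 FPKM in the control, and POX02579 had 9.73 ± 2.31 FPKM there, against 16.2 ± 1.19 FPKM in the control (SD, n = 3 each).

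In the run POX02852 and POX02853, both genes are long, at 1487 and 1681 bases, and their levels differed widely. POX02852 had 86.9, 88.5 and 60.3 FPKM in the deletion libraries and 16.8, 16.1 and 13.97 FPKM in the control libraries. Like the far more abundant POX02853, it was highest in deletion replicate 2 and lowest in replicate 3. Their flanking IDs POX02851 and POX02854 had ratios of 0.80 and 0.52.

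POX05629 and POX05630 lie in a run of low levels. POX05629 had 15.02, 17.7 and 28.1 FPKM in the deletion libraries and 3.90, 3.33 and 2.82 FPKM in the control libraries. POX05630, of 159 bases the shortest member, had 34.8, 37.4 and 51.2 FPKM in the deletion libraries and 8.93, 7.48 and 6.79 FPKM in the control libraries. In both genes replicate 3 was the highest of the deletion libraries and the lowest of the control libraries. POX05628 and POX05631, next to the run, had ratios of 1.70 and 1.02.

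The run POX08450 to POX08452 stood at higher levels in both strains. POX08450 and POX08451 are among the steadiest members described above. POX08452 had 238, 239.8 and 295 FPKM in the deletion libraries and 40.4, 35.5 and 32.6 FPKM in the control libraries. After POX08453, which is listed at 0 in all 6 libraries, came a further member, POX08454, with 600.4, 393 and 417 FPKM in the deletion libraries and 110.5, 51.5 and 87.0 FPKM in the control libraries. Of these 4 genes, POX08454 alone varied widely within both strains. The preceding ID, POX08449, stood at 0.36 ± 0.14 FPKM in the deletion strain, against 0.19 ± 0.02 FPKM in the control (SD, n = 3 each).

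The last run is POX09179 to POX09181. POX09179 had 29.2, 36.8 and 24.8 FPKM in the deletion libraries and 4.76, 5.72 and 2.86 FPKM in the control libraries. POX09180 had 74.3, 58.6 and 61.6 FPKM in the deletion libraries and 17.7, 10.5 and 14.2 FPKM in the control libraries. POX09181 had 116, 119 and 108 FPKM in the deletion libraries and 26.0, 23.6 and 29.1 FPKM in the control libraries. Levels increased along the run in both strains, and the IDs around it, POX09178 and POX09182, had ratios of 0.94 and 0.83.

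**Figure D5:**
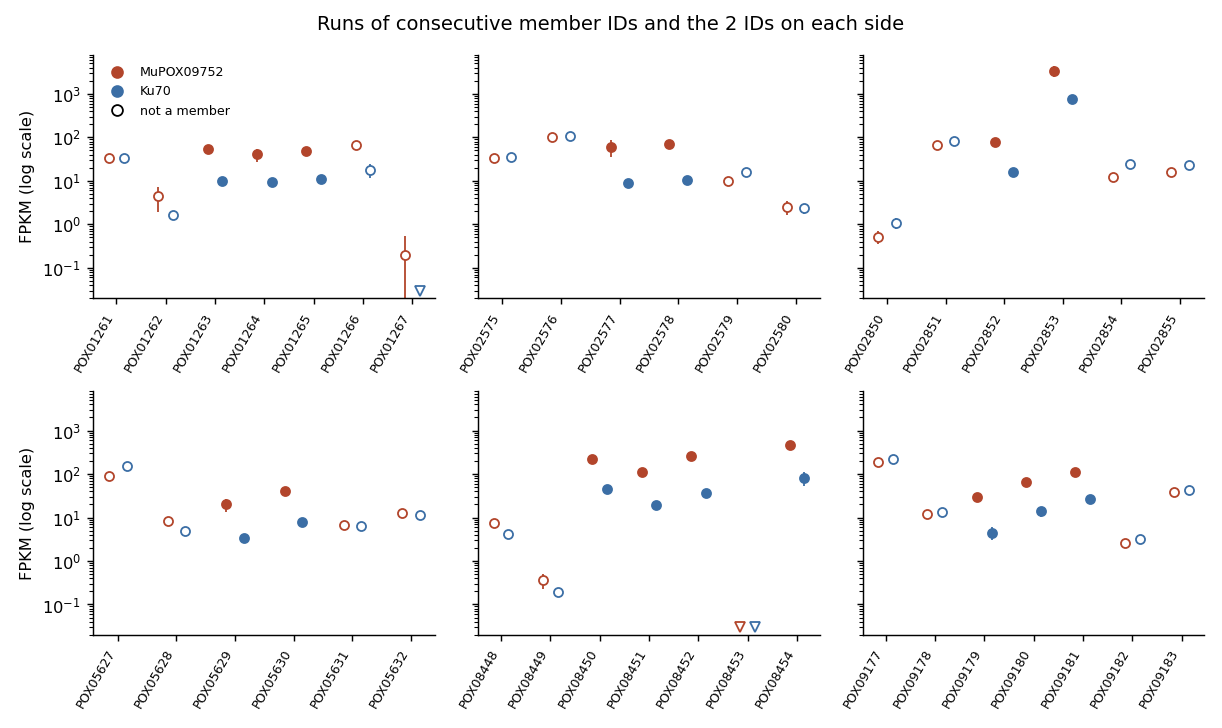
Mean FPKM (vertical axis, log scale) of the 6 runs of consecutive member IDs and of the 2 IDs on each side, by ID (horizontal axis), with the deletion strain left of the control. Filled symbols are members, open symbols are other IDs, bars are SDs over 3 libraries, and triangles mark IDs listed at 0. Within runs the strains are apart by 4 to 8 times, and most IDs outside the runs lie near equal levels, with POX01266, at a ratio of 3.75, among the exceptions.

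Next to members, IDs that were higher in the deletion strain made up a larger share than among all tested IDs up to POX09342, a difference that was not tested. Of 156 tested non-member IDs next to a member, 45 (28.8%) had a ratio of means of at least 2 and 15 (9.62%) a ratio of at most 0.5. Of all 8377 tested IDs up to POX09342, members included, 12.2% and 7.93% had such ratios. Without deletion replicate 3 the shares were 27.6% and 10.3% next to members, and 12.2% and 8.88% of all tested IDs in this range. Next to POX00836, with a deletion mean of 299 FPKM and a control mean of 58.4 FPKM, stood POX00835, with a deletion mean of 597 FPKM and a control mean of 27.9 FPKM, and POX00837, with a deletion mean of 589 FPKM and a control mean of 19.6 FPKM. In contrast, POX00730, next to POX00731, had a deletion mean of 29.1 FPKM and a control mean of 239 FPKM. On the other side of POX00731, POX00732 was higher in the deletion strain, at 86.2 FPKM against 6.85 FPKM in the control. POX08890, next to POX08891, had a deletion mean of 46.3 FPKM and a control mean of 2218 FPKM. These neighbours were named after their values had been seen. The members were found over the whole ID range, at 0.648% to 1.65% of the tested IDs in each block of about 1000 numbers.

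The members' lengths covered a wide range. The effective length implied by count, FPKM and library total, which can be shorter than the gene, had a median of 1393 bases for the members. Members ranged from 159 to 4050 bases, and the tested genes with enough counts had a median of 1259 bases. Members of under 500 bases numbered 18 (17.8%), against 13.5% of the tested genes. Of these 18 short members, 8 lay in runs of consecutive IDs, as did 7 of the 83 longer ones. The median CVs were 25.34% in the deletion strain and 12.996% in the control for the short members, and 17.99% in the deletion strain and 7.42% in the control for the longer ones. Without deletion replicate 3 the deletion medians were 11.4% for the short and 6.72% for the longer members. The fewest counts of a member in any library were 15, in a control library. The part of counting error in the spread of the short members was not tested.

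Counts that were not whole, as an estimate gives when a read fits several genes and is divided among them, occurred in some library in 9 members (8.91%), against 11.2% of all IDs. In 8 of these 9 no count was farther than 0.05 of a read from a whole number, too little to alter a level. POX01764 was the exception, with counts that were not whole in all 6 libraries and up to 0.45 of a read from a whole number. More than 0.05 of a read separated some count from a whole number in 2.17% of all IDs. A count near a whole number does not show that all its reads fit only 1 gene.

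A few members were uneven in both strains in a like manner, a pattern looked for after the values had been seen. POX07532, of 249 bases, had 398, 166 and 169 FPKM in deletion replicates 1, 2 and 3, and 72.2, 29.2 and 51.9 FPKM in control replicates 1, 2 and 3. It was highest in replicate 1 and lowest in replicate 2 of both strains, as were POX05314, POX06391, POX08454 and POX09180. Deletion replicates 2 and 3 of POX07532 were nearly equal, however. Its control CV of 42.1% was the largest among the members. The ratio of means was 4.78 for POX07532, with library ratios from 2.295 to 13.7. Over all members the highest library had the same replicate number in both strains in 36 of 101 (35.6%), against 39.3% of the tested genes.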

How the data were processed

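The 6 libraries (3 MuPOX09752, 3 Ku70) were grouped by the strain in the titles. The authors deposited, per the file headers, expected counts and FPKM for 9834 gene IDs in each library. The deposited expected counts are estimates that are not normalized, and the authors scaled the FPKM values to gene length and library total. Tools listed in the submitters' processing notes, without roles, are RSEM 1.2.12, BWA 0.7.10-r789, DESeq2 and Bowtie2 2.1.0. Build and annotation were not given in the sources used here. None of the IDs matched a locus tag of the reference gene table (0 matches), so members have no names, positions or sequences here.

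Members, lists and thresholds were chosen with earlier results of these data known. Because the rule used both strains' means, no test was made on the members. Expected counts were rounded to whole numbers and tested with edgeR's quasi-likelihood test (edgeR 4.0.16, R 4.3.3, TMM factors from 0.973 to 1.016) as background, over 8807 genes that averaged 1 FPKM or more. The SE of a log2 fold change is its size divided by the square root of F. Effective lengths were computed from libraries with at least 20 counts (median CV between libraries 0.088%, over 7906 genes with that many in every library). Within each strain replicates differed by more than counting error (chi-square per degree of freedom of at least 6.97), so none was counted as a repeat, and since separate cultures are not stated, the spread behind the p-values may be technical. Depth limits short, low genes, and no molecular identifiers are stated. Named members are the 10 highest deletion means, the 5 highest and 5 lowest ratios, the 5 highest and 5 lowest deletion CVs, all in runs of consecutive IDs, and the nearest genes at each limit. Alternatives were other scalings, filters and pseudocounts (0.1 and 5), DESeq2 1.42.0, limma 3.58.1, the replicate letter as a block, other forms of the rule and leaving out each library. Spreads of the compared sets, spreads by length and shares of neighbours without deletion replicate 3 were added after the data had been seen.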

Additional observations from a re-analysis of the deposited data

How the results depend on the processing

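The number of members was 101, and other forms of the rule gave 71 (at least 50 FPKM) to 130 (at least 10 FPKM). Medians in place of means gave 106 genes, of which 85 were members. Leaving out a library gave 97 to 106 genes, of which 81 (without deletion replicate 3) to 98 were members. The members' median log2 fold change of 2.43 was 2.36 to 2.45 with a library left out and 2.09 in limma with a pseudocount of 5, which shrinks the changes of low genes. Their median deletion CV of 18.4% was 6.92% over the 2 libraries left without deletion replicate 3. As an SD of log2(FPKM + 1) over all 3 it was 0.27. Among all tested genes 5290 were called, and leaving out a library gave 4454 to 5851. Of 600 values for the 40 named members, 585 moved by less than the replicate spread and 0 changed sign; 15 were lower by more than that, all but 1 of them in limma, the exception being POX05696, at a log2 fold change of 0.29 without deletion replicate 3 and 2.26 with it. The replicate spread was each gene's own, so an uneven gene could move far and still be counted as unmoved. Without deletion replicate 3 the log2 fold change of POX01764 moved from 2.65 to 1.79, within its spread of 1.30. Without deletion replicate 1 or 2, all 101 members were called higher, as were 2436 and 2434 of the 8807 tested genes. The rule used the same contrast, so this is no evidence about the members. The call gained was that of POX05696, whose 117 FPKM in deletion replicate 3 remained in both fits. Pairing by the letters F, S and T was not established: the correlations of same-letter deviations were -0.017, 0.156 and 0.075. Those between different letters ran from -0.129 to 0.063, so 0.156 and 0.075 lay above all of them, a difference that was not tested. A fit with a replicate block for the letter called 5282 genes and gave the members a median of 2.41.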
